A study of Mus musculus with 8 samples.

Results

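The MHC class II presentation machinery was followed in 8 libraries of mouse pancreatic tumour RNA through 9 genes, found by name among the 54532 genes of the deposited count table. The genes encode the antigen-presenting chains (H2-Aa, H2-Ab1 and H2-Eb1), the peptide editor H2-DM (H2-DMa and H2-DMb1), its inhibitor H2-O (H2-Oa and H2-Ob), the invariant chain (Cd74) and the class II transactivator (Ciita). All 9 passed the filter on low counts and were tested among 18238 genes. The tumours grew from a single line of mouse pancreatic cancer cells, KPC, placed in the pancreas of C57BL/6 mice. The labels give the cell type as pancreatic cancer cells, but whole tumours were taken, and transcripts of macrophages, T cells, B cells and acinar cells were present in every library. The 4 Saline libraries came from mice given saline for 2 weeks and the 4 TLQP21 libraries from mice given the VGF-derived peptide TLQP21 for the same time. The labels name neither a dose nor an age, and they do not say whether each library is a separate animal, so a p-value here reflects only how far these libraries spread, which may be technical. The series was set up to look for transcripts that accompany the slower growth reported for peptide-treated tumours.

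Class II molecules carry peptides from the endosomal pathway to CD4+ T cells. An alpha and a beta chain pair in the endoplasmic reticulum with the invariant chain, which plugs the groove and directs the complex to endosomes. Proteases then trim the invariant chain, H2-DM exchanges the remaining fragment for antigenic peptide, and H2-O restrains H2-DM, mainly in B cells and some dendritic cells. Ciita is the coactivator that switches on these genes together, in professional antigen-presenting cells and, under interferon-gamma, in many other cells. Bulk tumour RNA mixes all such cells, so fewer presenting cells and less RNA per cell cannot be told apart here.

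Ciita does not bind DNA itself and is recruited by factors seated on an X box and a Y box shortly before the start of class II genes. RefSeq windows of GRCm38.p6, running from 250 bases before to 50 bases after each gene's start, were matched for 6 of the 9 members (H2-Ab1, Cd74 and Ciita were not matched). The stretches below, which lie shortly before the start, are shown because they carry the letters through which these genes are thought to be switched on together. Capitals mark the letters GNAAC of an X-like element and GATTGG, the Y box core that the factor NF-Y reads as an inverted CCAAT.
H2-Aa (chr17:34287862-34287943, minus strand): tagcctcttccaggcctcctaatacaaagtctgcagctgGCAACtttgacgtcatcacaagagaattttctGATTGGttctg
H2-Eb1 (chr17:34305747-34305828, plus strand): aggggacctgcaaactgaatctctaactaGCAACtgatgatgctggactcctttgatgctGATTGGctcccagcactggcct
H2-Ob (chr17:34238785-34238866, plus strand): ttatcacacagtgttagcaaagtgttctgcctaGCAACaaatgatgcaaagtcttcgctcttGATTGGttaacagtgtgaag
H2-Oa (chr17:34092259-34092340, plus strand): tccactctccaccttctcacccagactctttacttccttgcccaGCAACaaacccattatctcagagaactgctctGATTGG

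In these 4 windows the first letter of GNAAC and the first letter of GATTGG lay 32 bases apart in H2-Aa, 31 in H2-Eb1, 29 in H2-Ob and 32 in H2-Oa. The window of H2-DMb1 held the same arrangement at 32 bases, and that of H2-Eb2, a related beta-chain gene, at 31. That of H2-DMb2, the other beta-chain relative with a window, held GATTGG but not the arrangement, and lies 1942 bases from its deposited start. The arrangement, searched on both strands at 28 to 33 bases, occurred in 111 of 32851 windows (0.338%). GATTGG alone was in 16.1% of windows and the longer CTGATTGG in 4.10%. Of the members, H2-Aa had the cAMP-response letters TGACGTCA, found in 1.79% of windows, 74 bases before its start. Neither window of H2-DMa held the arrangement, but both lie 9664 bases or more upstream of the start that the deposited table gives for that gene. The motif and its spacing were chosen after the sequences were seen, and a match is a description of letters, not of a working site.

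Transcripts of the class II machinery were abundant in these tumours and spanned a wide range per gene length. Cd74 stood highest, at 1321 ± 113 CPM per kilobase in Saline and 1081 ± 173 in TLQP21 (SD, n = 4 per group), where CPM are read counts relative to library size after trimmed-mean (TMM) scaling. The beta chain H2-Eb1 followed at 626 ± 87.4 and 483 ± 103 CPM per kilobase, the beta chain H2-Ab1 at 468 ± 80.9 and 365 ± 90.7, and the alpha chain H2-Aa at 412 ± 71.5 and 349.5 ± 54.8. The editor subunits lay several-fold lower, with H2-DMb1 at 69.9 ± 14.2 and 64.5 ± 12.8 CPM per kilobase and H2-DMa at 44.02 ± 3.52 and 36.9 ± 8.58. Ciita, at 9.49 ± 2.03 and 8.04 ± 1.42, and the inhibitor subunits H2-Ob, at 2.66 ± 0.393 and 1.90 ± 0.432, and H2-Oa, at 1.75 ± 0.692 and 1.62 ± 0.224, were the lowest. The mean of Cd74 over all libraries was 712 times that of H2-Oa.

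This order held in all 8 libraries for 6 of the 8 neighbouring pairs. H2-Ab1 exceeded H2-Aa in 6 of 8 libraries and H2-Ob exceeded H2-Oa in 7 of 8. Whether these neighbours differed was not tested. Lengths are those of the deposited table (9535 bases for Ciita and 3153 for H2-Ob, the longest of the 9). Together the 9 genes took 0.439 ± 0.0648% of all counts in Saline and 0.362 ± 0.0667% in TLQP21.

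**Figure D1:**
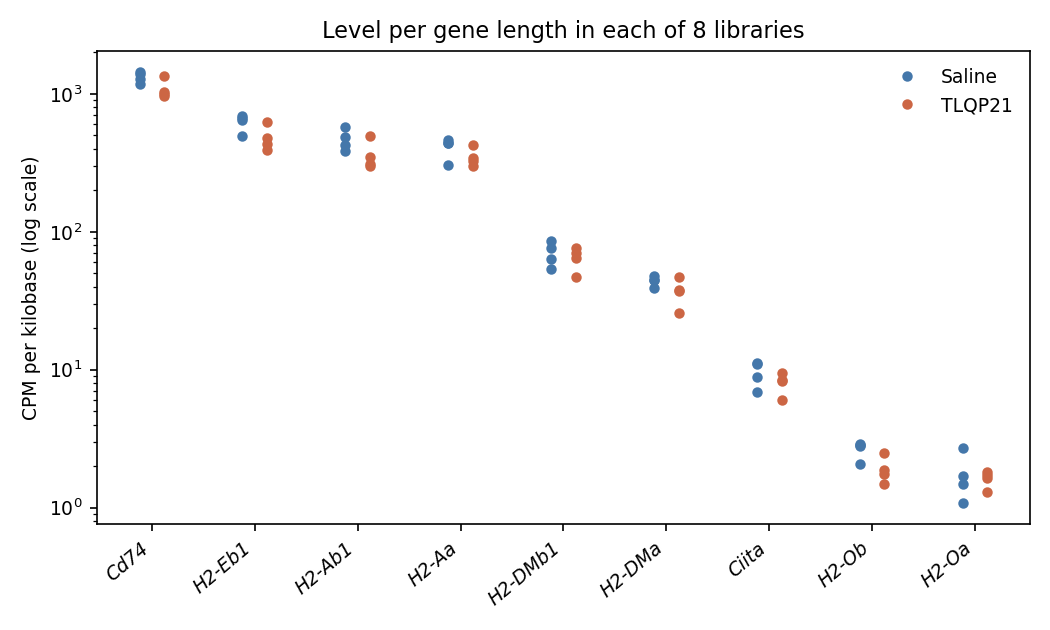
CPM per kilobase of gene length (log axis) for each of the 9 class II genes, with 1 point per library, 4 Saline and 4 TLQP21. Cd74 and the 3 chains lie at 299.6 or above in every library, the H2-DM subunits between 25.9 and 85.9, and the H2-O subunits below 3.

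No class II gene passed the edgeR quasi-likelihood test between TLQP21 and Saline after Benjamini-Hochberg adjustment over all genes. Of the 9, 0 were called (0% of all tested genes were called), each with an adjusted p = 0.9999, and DESeq2 and limma's voom also called 0 of 9 (0.0124% and 0.00548% of all genes they tested). All 9 had a log2 fold change below 0, against 49.4% of all tested genes. Their median was -0.25, against 0.00 over all genes tested. At an unadjusted p under 0.05, 2 of the 9 lay lower with edgeR, H2-Ob and H2-Eb1 (2.26% of all tested genes did, and 3.06% in either direction), with 3 by DESeq2 (2.3% of all genes in either direction) and 6 by limma (10.6%). In 0 of the 9 genes did all TLQP21 libraries lie below all Saline libraries (0.844% of all tested genes did, and 1.66% were apart in either direction). With 1 library left out, the number at an unadjusted p under 0.05 was 5 without Saline 4 (2.84% of all genes in that fit), 4 without TLQP21 1 (5.6%) and 1 without TLQP21 3 (2.14%). It was 0 without Saline 1, 2 or 3 (3.09, 2.34 and 4.08% of all genes) and without TLQP21 2 or 4 (1.87 and 3.1%). The median was -0.39 without TLQP21 1 and -0.24 without Saline 2. The 9 genes are not independent of each other, as the libraries below show, and the members were chosen with results of these data known.

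The presenting chains lay lower on average in TLQP21, with 3 of the 4 TLQP21 libraries below most of Saline and 1 among them. H2-Eb1, the E beta chain, was at 766, 795, 814 and 589 CPM in Saline 1 to 4 and at 743, 567, 512 and 465 in TLQP21 1 to 4. TLQP21 1 lay inside the Saline range, above Saline 4 only, while the other TLQP21 libraries lay below the lowest Saline library. The log2 fold change was -0.37 (SE 0.16, 95% interval -0.74 to -0.01, n = 4 per group), or 77.2% of the Saline level.

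H2-Ab1, which encodes the A beta chain, was at 796, 937, 699 and 632 CPM in Saline and at 813, 574, 493 and 507 in TLQP21. Again TLQP21 1 was the exception, lying above every Saline library but Saline 2. Its log2 fold change was -0.36 (SE 0.18, interval -0.77 to 0.05). H2-Aa, its alpha-chain partner, was at 822, 863, 831 and 573 CPM in Saline and at 799.8, 646, 562 and 612 in TLQP21. Here Saline 4 lay with the lower TLQP21 libraries, and 3 of 4 TLQP21 libraries were inside the Saline range. The log2 fold change of H2-Aa was -0.24 (SE 0.16, interval -0.59 to 0.11), and -0.36 without Saline 4. That of H2-Ab1 was -0.55 without TLQP21 1.

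E beta needs an E alpha partner to reach the cell surface. The gene of that partner, annotated in the table as the pseudogene H2-Ea-ps, had 0 reads over the 8 libraries, which allows up to 0.0125 CPM when 3 counts are taken as the floor (counting error only). Mice of the C57BL/6 background are known not to transcribe E alpha, so the H2-Eb1 transcripts above stood without a measured partner. H2-Eb2, a weakly transcribed relative of H2-Eb1, averaged 1.85 ± 0.592 CPM in the Saline libraries and 1.64 ± 0.243 in the others.

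Cd74, the invariant chain, was at 1791, 1967, 2020.2 and 1674 CPM in Saline and at 1883, 1461, 1349 and 1404 in TLQP21. Its pattern was that of H2-Eb1: TLQP21 1 within the Saline range and the other TLQP21 libraries below it. The log2 fold change was -0.29 (SE 0.13, interval -0.58 to 0.00). Ciita, the transactivator, was at 84.3, 104, 108 and 65.9 CPM in Saline and at 89.7, 80.6, 78.5 and 57.7 in TLQP21. All TLQP21 libraries lay below the Saline mean, but 3 of them lay above Saline 4. The log2 fold change of Ciita was -0.24 (SE 0.18, interval -0.63 to 0.15). It was -0.13 without TLQP21 4, -0.15 without Saline 3 and -0.37 without Saline 4.

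Both editor subunits had intervals that included 0. The alpha subunit H2-DMa was at 73.2, 73.7, 77.9 and 64.2 CPM in Saline and at 77.0, 61.7, 61.1 and 42.6 under the peptide. TLQP21 4 was the lowest library and TLQP21 1 the second highest. The log2 fold change of H2-DMa was -0.25 (SE 0.16, interval -0.61 to 0.10). Without TLQP21 4 it was -0.12 and without TLQP21 1 it was -0.39. H2-DMb1 was at 94.6, 114, 128 and 79.6 CPM in Saline and at 114, 104, 95.7 and 69.5 in TLQP21, with 3 of 4 TLQP21 libraries inside the Saline range (log2 fold change -0.12, SE 0.18, interval -0.52 to 0.28). Its value was 0.01 without TLQP21 4, -0.0016 without Saline 3 and -0.23 without Saline 4.

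H2-DMb1 has a close copy, H2-DMb2, also an H2-DM beta chain. Of all 100-base stretches in the annotated transcripts of H2-DMb1, 11.3% occurred unchanged in those of H2-DMb2, so the split of reads between the 2 genes is uncertain there. How the counting treated such reads was not tested. H2-DMb2 averaged 14.8 ± 5.01 CPM in the Saline libraries and 12.9 ± 2.26 in the others. The other 8 members shared 0 such stretches with any other gene's transcripts in the GENCODE M21 set.

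The inhibitor subunits were weakly transcribed and moved apart from each other. H2-Ob was at 8.88, 8.93, 9.20 and 6.54 CPM in Saline and at 5.88, 5.53, 7.90 and 4.69 in TLQP21. Every TLQP21 library lay below the Saline mean and 3 lay below Saline 4, the lowest of its group. Its log2 fold change of -0.48 (SE 0.20, interval -0.93 to -0.04) was the lowest of the 9 members. H2-Oa was at 1.43, 2.24, 3.57 and 1.97 CPM in Saline and at 1.71, 2.27, 2.16 and 2.38 in TLQP21, and every TLQP21 library lay inside the Saline range (log2 fold change -0.11, SE 0.29). The libraries held 42 to 104 reads of H2-Oa, whose spread over all libraries (CV 28.5%) compares with 12.3% from counting alone. For H2-Ob, with 152 to 268 reads, these were 24.4% and 6.84%. Leaving out Saline 3 turned the H2-Oa difference to 0.18. In limma's voom it was 0.13.

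**Figure D2:**
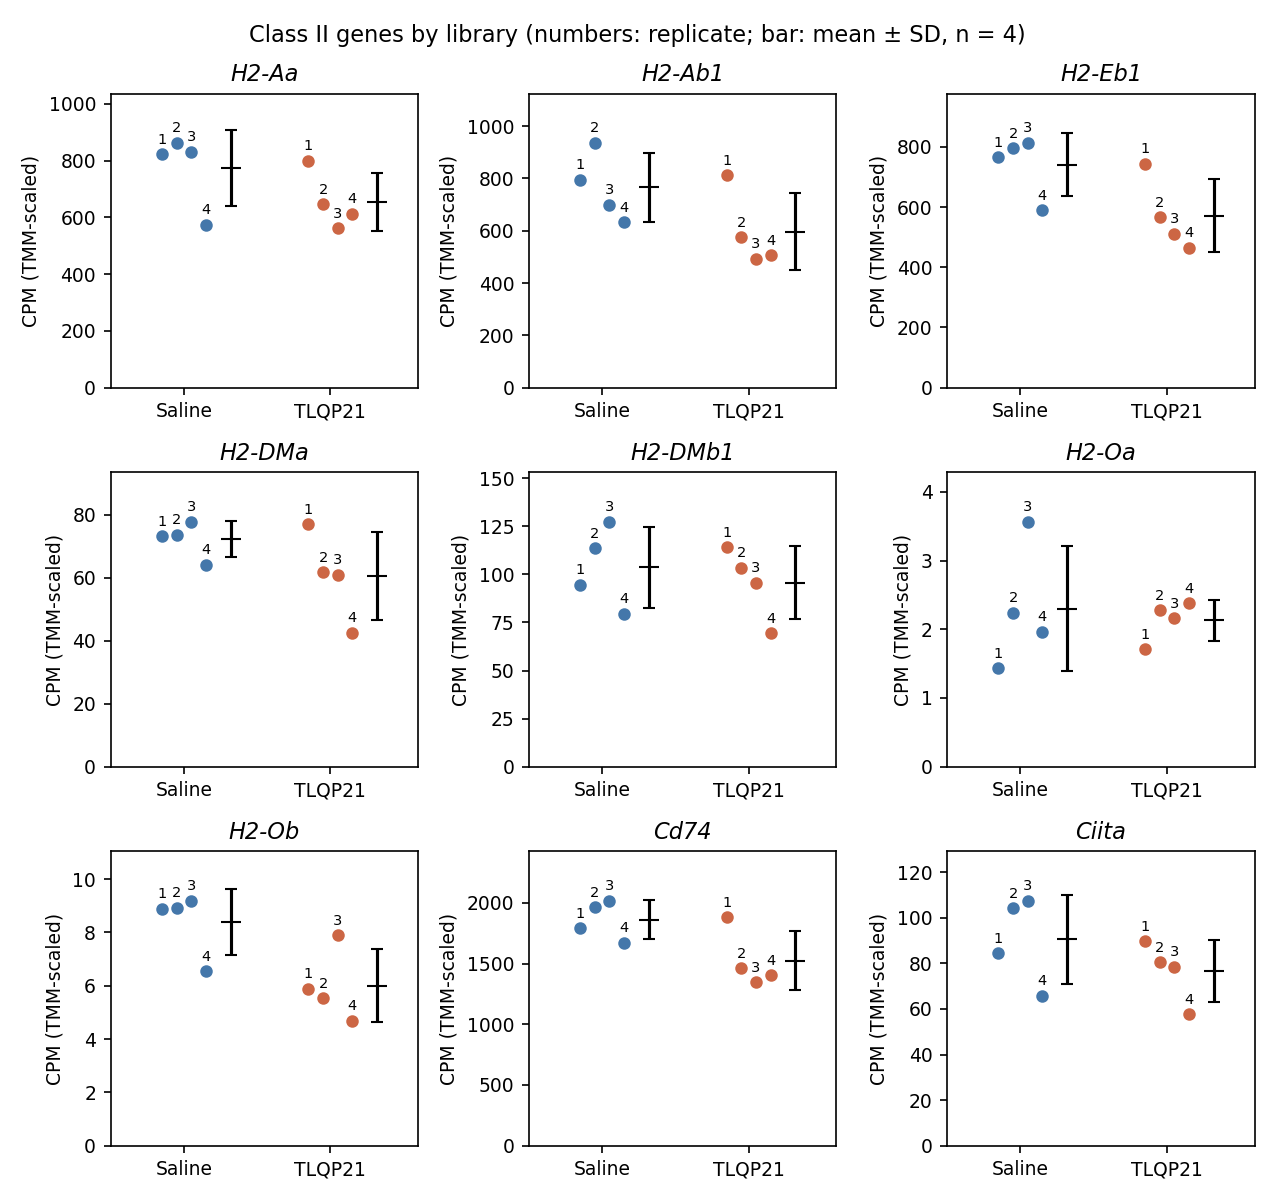
TMM-scaled CPM of each class II gene in the 4 Saline and 4 TLQP21 libraries, 1 point per library labelled with its replicate number, with mean ± SD (n = 4) beside each group. In every panel the ranges of the groups overlap, and Saline 4 is the lowest Saline library in 8 of the 9 panels.

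Variation among libraries of the same group was shared by most members. Saline 4 had the lowest value of its group for 8 of the 9 genes and Saline 3 the highest for 7. TLQP21 1 had the highest value of its group for 7 genes and TLQP21 4 the lowest for 5. Correlations were taken over the 8 libraries without centring by group, so they also include the difference between groups. Log2 CPM (prior count 2) of the 28 pairs of members without H2-Oa had Pearson correlations of 0.52 to 0.96. Their median was 0.77. The strongest was between Ciita and H2-DMb1 (0.96), then H2-Eb1 and Cd74 (0.95). H2-Oa had correlations of -0.25 to 0.29 with the other 8. These are descriptions over 8 libraries, and within a library all genes share its depth and tissue composition, which differ between libraries.

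**Figure D3:**
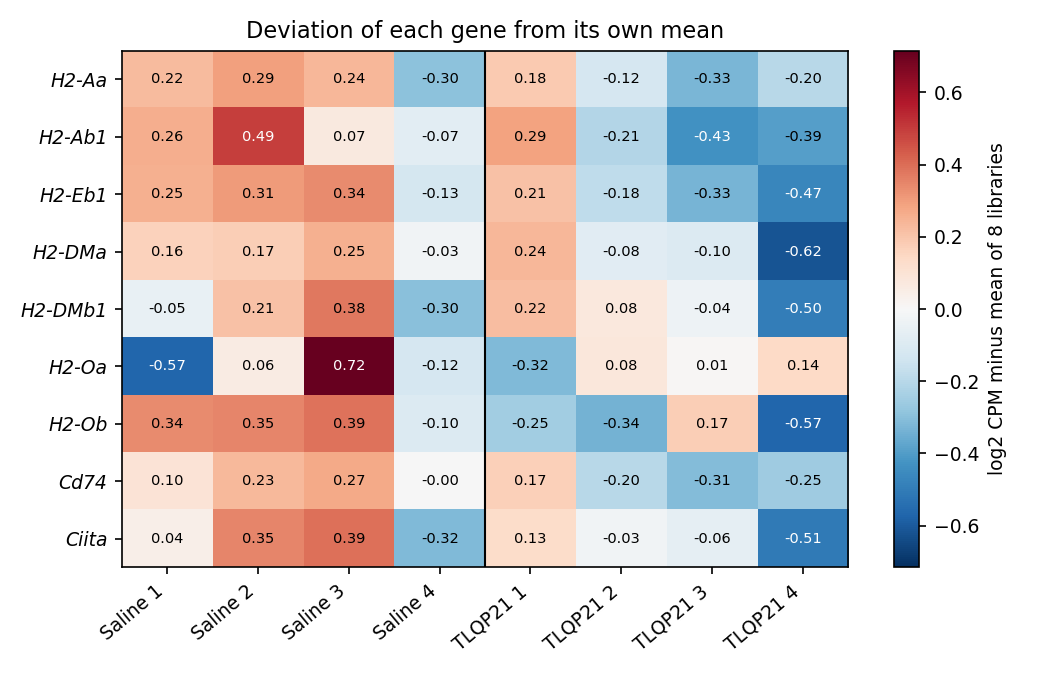
Each cell is a gene's log2 CPM in 1 library minus that gene's mean over the 8 libraries (rows: class II genes, columns: libraries, the line separates Saline from TLQP21; red above, blue below the mean). Saline 1 to 3 and TLQP21 1 are mostly above the mean, Saline 4 and TLQP21 2 to 4 mostly below, and H2-Oa does not follow the other rows.

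Several properties of the libraries run beside these values. Totals were 28358465 to 28963457 counts in Saline and 29027480 to 33536087 in TLQP21, so every TLQP21 library was deeper. Both groups held 2 libraries with Xist reads (numbers 1 and 2, from 9960 to 10625 reads) and 2 with at most 14 (numbers 3 and 4). The latter are called Y-linked here. The split was set by Xist reads alone, at 1000. Taken separately in the Xist libraries and in the Y-linked ones, the differences in mean log2 CPM were -0.27 and -0.51 for H2-Eb1, -0.34 and -0.41 for H2-Ab1, -0.23 and -0.24 for H2-Aa, and -0.18 and -0.42 for Cd74. They were -0.14 and -0.32 for Ciita, -0.09 and -0.47 for H2-DMa, 0.07 and -0.30 for H2-DMb1, 0.13 and -0.22 for H2-Oa, and -0.64 and -0.35 for H2-Ob. An interaction of treatment with this split was called by edgeR for 0 of the 9 genes (adjusted p from 0.842 to 0.976), as for 0 of all 18238 genes (0%). Saline 2 held hepatocyte transcripts, with a summed 4041 CPM of 6 hepatocyte genes against at most 9.27 in the other libraries, and Saline 4 had the most acinar transcripts (45512 CPM over 8 genes).

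The balance between members was compared within each library, where scaling plays no part. Reads of H2-DM (both subunits) came to 7.76 ± 0.794% of those of the 3 chains in Saline and 8.61 ± 1.29% in TLQP21 (difference in log2 ratio 0.14, exact two-sided permutation p = 0.286, adjusted p = 0.857 over 4 ratios). The difference was 0.07 without TLQP21 3 and 0.23 without TLQP21 4. Reads of Cd74 came to 82.6 ± 8.75% and 84.1 ± 3.99% of those of the chains (0.03, exact p = 0.657, adjusted 0.876). H2-Eb1 came to 97.7 ± 13.5% and 96.4 ± 5.97% of H2-Ab1 (-0.01, exact p = 0.943, adjusted 0.943). With 4 libraries against 4, the smallest p such a test can give is 0.0286.

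Ratios of inhibitor to editor reads lay closer together in Saline than in TLQP21. Reads of H2-O came to 6.15, 5.97, 6.21 and 5.92% of those of H2-DM in Saline 1 to 4. In TLQP21 1 to 4 they came to 3.97, 4.72, 6.42 and 6.31%. TLQP21 1 and 2 thus lay below all other libraries, and TLQP21 3 and 4 above all Saline libraries. H2-Ob, the more abundant H2-O subunit, had only 152 to 268 reads per library, with a CV of 6.84% from counting alone. Each library's ratio is therefore uncertain by counting. The Saline ratios, at 6.06 ± 0.142% (SD), lay closer together than counting of this size would give, so their closeness cannot be read as constancy. The margin of TLQP21 3 and 4 above Saline was also smaller than this counting spread. The part of counting in these values was not tested. The difference in mean log2 ratio was -0.21 (exact permutation p = 0.429, adjusted p = 0.857), and the difference in spread was not tested. Without TLQP21 1 the difference was -0.07.

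**Figure D4:**
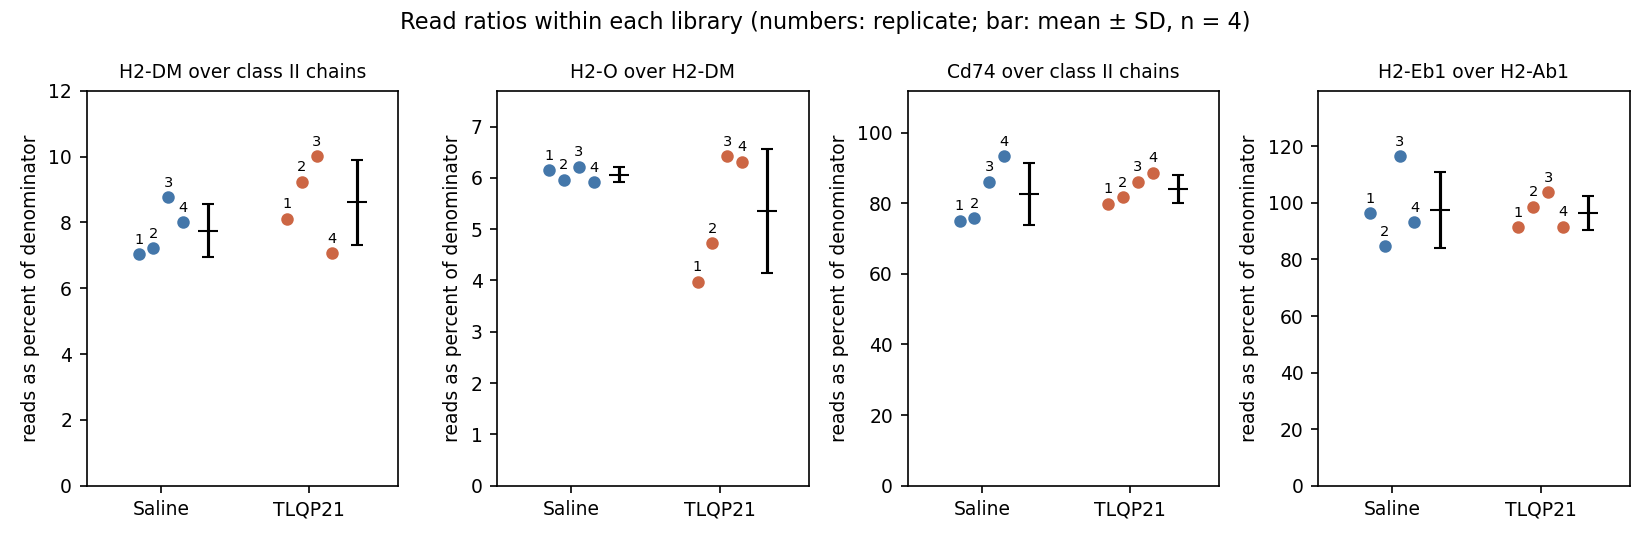
Reads of 1 group of class II genes as a percentage of another within each library, 1 point per library labelled with its replicate number, with mean ± SD (n = 4). For H2-O over H2-DM the Saline libraries lie between 5.92 and 6.21% and the TLQP21 libraries between 3.97 and 6.42%.

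Genes that act upstream of the class II promoters were not called by edgeR in any list, and each count here is given with the list's median log2 fold change. Of all tested genes, 49.4% lay below 0. Of 8 factors that bind or assist at the X and Y boxes, 5 lay below 0 and 3 above (median -0.02, and from -0.04 to 0.04 with 1 library left out, 0.04 being without Saline 3). Among them Nfya, a subunit of NF-Y, averaged 109 ± 2.94 CPM in the Saline libraries and 122 ± 9.23 in the others. For Nfya all TLQP21 libraries lay above all Saline libraries (1.66% of all tested genes were apart in either direction). Nfyc, another subunit, was at 32.5 ± 1.74 and 33.8 ± 2.47 CPM. Of 9 genes of the interferon-gamma axis that induces Ciita, 8 lay below 0 (median -0.14), among them the transcription factor Irf1 (249 ± 59.04 CPM in Saline and 198 ± 44.1 in TLQP21).

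Downstream steps gave similar counts. Of 8 endolysosomal genes that prepare peptides or trim the invariant chain, 6 lay below 0 (median -0.07, but -0.03 without TLQP21 4 and -0.12 without Saline 4 or TLQP21 1), among them the thiol reductase Ifi30 (129 ± 7.45 and 113 ± 23.1 CPM) and cathepsin D, Ctsd (503 ± 21.6 and 423 ± 136). Of 4 genes listed for class II turnover, 3 lay below 0 (median -0.22, but -0.12 without Saline 1 or TLQP21 3 and -0.13 without Saline 2). Among these 3 were March1, a ubiquitin ligase that removes class II from the surface (25.7 ± 6.74 and 21.1 ± 5.53 CPM), and Cd83, which opposes it (31.7 ± 13.2 and 23.2 ± 10.04). The other was Ubash3b (log2 fold change -0.14), whose tie to class II turnover is not established here. Of 6 costimulatory genes and class II receptors, 6 lay below 0 (median -0.48). By edgeR 3 of them lay lower at an unadjusted p under 0.05 (2.26% of all tested genes did). The ligand Icosl averaged 23.2 ± 2.08 CPM in Saline against 17.9 ± 2.76, without overlap (0.844% of all tested genes were apart and lower). Cd40, a receptor through which T cells license presenting cells, was at 14.5 ± 4.32 and 8.16 ± 3.16 CPM.

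The class I pathway, which presents cytosolic peptides and shares interferon control with class II, was set beside it. Of 12 class I genes, 11 lay below 0, with a median of -0.19 against -0.25 for class II. By edgeR 0 of them were called. At an unadjusted p under 0.05, 1 lay lower, against 2 of 9 (2.26% of all tested genes did). Nlrc5, the counterpart of Ciita for class I, averaged 111 ± 8.99 CPM under saline against 92.7 ± 13.1 (log2 fold change -0.27, SE 0.11), and the peptide transporter Tap1 was at 248 ± 11.6 and 200.5 ± 41.5. The class I median was -0.08 without TLQP21 4, -0.12 without Saline 2 and -0.34 without TLQP21 1. Whether the 2 pathways differed was not tested.

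**Figure D5:**
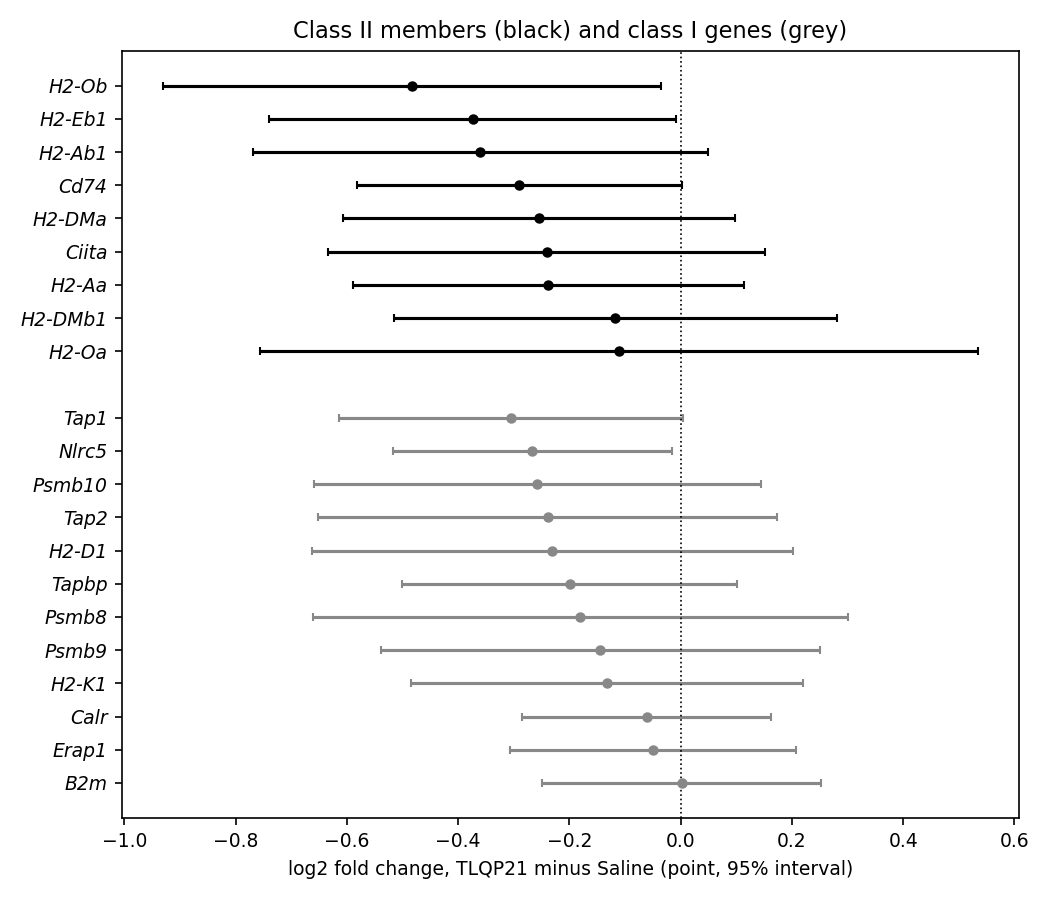
Log2 fold changes (TLQP21 minus Saline, edgeR, points) with 95% intervals (bars) for the 9 class II genes (black) and 12 class I genes (grey). All class II points lie left of 0, from -0.48 for H2-Ob to -0.11 for H2-Oa, and 7 of the 9 intervals include 0.

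Markers of cells that carry class II were read in the same libraries. Of 9 macrophage markers, 8 lay below 0 (median -0.20), with summed levels of 1615 to 1818 CPM in Saline and 1209 to 1992 in TLQP21. That median was -0.07 without TLQP21 4 and -0.36 without TLQP21 1. Adgre1 (F4/80) was at 128 ± 5.80 and 92.2 ± 14.3 CPM, without overlap (0.844% of all tested genes were apart and lower). It was the only macrophage marker apart. Mertk, a receptor for dying cells, was at 34.6 ± 7.18 and 26.2 ± 4.94 CPM. Of 8 B cell markers, 6 lay below 0 (median -0.31), with sums of 29.8 to 51.6 and 13.0 to 49.6 CPM. The B cell median was -0.10 without Saline 2 or without TLQP21 2, and -0.59 without TLQP21 3. Of 10 dendritic cell markers, 6 lay below 0 (median -0.02), with sums of 104 to 161 and 110.002 to 145 CPM, and this median ran from -0.11 without Saline 2 to 0.10 without Saline 3. No marker of these lists had 0 reads in a group.

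Over the 8 libraries, the mean level of the class II members had a Pearson correlation of 0.71 with that of macrophage markers, 0.67 with T cell, 0.49 with hepatocyte (high in Saline 2 only), 0.40 with dendritic cell and 0.32 with B cell markers. It was 0.14 with mesothelium, 0.07 with acinar and -0.15 with tumour epithelium markers. Among single members, H2-Ab1 followed the macrophage markers most closely (0.92), and H2-Ob had the highest correlation with B cell markers (0.59). H2-Ab1, H2-Eb1, H2-DMa, H2-Ob and Cd74 correlated more with macrophage than with T cell markers. H2-Aa, H2-DMb1 and Ciita correlated more with T cell markers (0.85, 0.72 and 0.72) than with macrophage markers (0.70, 0.56 and 0.60). H2-Oa had -0.40 with macrophage and -0.07 with T cell markers. The part of these cells in the class II values was not tested. Of 7 epithelial markers, 6 lay above 0 (median 0.09), with sums of 5909 to 6428 CPM in Saline and 6390.1 to 6685 in TLQP21. Of 6 T cell markers 4 lay above 0 (median 0.04), as did 4 of 6 markers of mesothelium and antigen-presenting fibroblasts (median 0.33). Without TLQP21 1 these medians were -0.16 and -0.03, and without Saline 4 they were -0.09 and 0.64. All 8 acinar markers lay below 0 (median -0.50), as did all 5 tested hepatocyte markers (median -6.45, and -0.31 without Saline 2). The acinar median was 0.19 without Saline 4 and -0.91 without TLQP21 1.

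The genes outside the members whose log2 CPM followed the members' mean level most closely over the 8 libraries were Lactb (Pearson 0.97), Tmem54 (0.97), Gpr162 (0.96), Gm9888 (0.96), Uba7 (0.94), Gm5970 (0.94), Zap70 (0.94), Rpia (0.93), Cx3cl1 (0.93) and Gm5641 (0.93). They were taken from 18229 genes, and 3 of these 10 were also among the 10 nearest by Spearman correlation. Uba7, the activating enzyme for the ubiquitin-like protein ISG15, averaged 79.6 ± 9.45 CPM in the Saline libraries and 66.3 ± 8.63 in the others. Zap70, a kinase of the T cell receptor, was at 7.23 ± 1.35 and 5.84 ± 1.73 CPM.

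On GRCm38 the 7 H2 members lie on chromosome 17, in the order H2-Oa (34092340 to 34095234), H2-DMa (34135182 to 34139101), H2-DMb1 (34153072 to 34160230), H2-Ob (34238903 to 34245907), H2-Ab1 (34263209 to 34269418), H2-Aa (34282744 to 34287827) and H2-Eb1 (34305877 to 34316199). H2-Aa alone of these is on the minus strand. Ciita lies on chromosome 16 (10480059 to 10528418), and all are annotated as protein-coding. Ciita overlaps Dexi on the opposite strand, which had 6795 reads against 19988 for Ciita, and H2-Oa overlaps the antisense gene BC051537, which had 6 reads against 533. The strand setting of the counting is not given in the sources used here, so reads in these overlaps are uncertain.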

How the data were processed

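Per the labels' protocols, RNA was column-purified from tumours, NEBNext Ultra libraries were made and both ends were sequenced. The authors deposited raw counts of reads for each gene. DESeq2 1.32.0, featureCounts 1.5.0-p3 and HISAT2 2.0.5, with GRCm38, are listed per the submitters' processing notes. The annotation release and strand setting are not given in the sources used here. Gene lengths are other values of the deposited table. Of the gene names, 27 had become dates and were restored by identifier, March1 and March8 among them.

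The test was edgeR 4.0.16 under R 4.3.3 (low-count filter by group, TMM scaling, quasi-likelihood test, no covariates, Benjamini-Hochberg over 18238 genes, threshold 0.05). DESeq2 1.42.0 and limma 3.58.1 were alternatives, beside other scalings and filters, covariates, thinned libraries and libraries left out. Members and lists were chosen with earlier results of these data known. Genes named were the members, their relatives, up to 2 per list with the smallest p, and the 10 nearest by correlation. One gene that this rule names is not reported here. The fit was tested on simulated data.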

Additional observations from a re-analysis of the deposited data

Results flagged for a closer look

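Among Saline libraries, H2-Aa stood apart in Saline 4, at 573 CPM against 822, 831 and 863 in the others. H2-Ob also stood apart there, at 6.54 CPM against 8.88, 8.93 and 9.20. In each case the gap from Saline 4 to the nearest library, divided by the range of the group, exceeded Dixon's critical value for 4 samples. These were 2 of 26 groups of 4 checked (9 genes and 4 ratios in each treatment), where chance gives about 1 in 20. Without Saline 4 the log2 fold change was -0.36 for H2-Aa and -0.59 for H2-Ob.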

How the results depend on the processing

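Under the 20 alternatives run, 0 class II genes were called in any fit, 8 or 9 of the 9 lay below 0, and their median ran from -0.39 to -0.18. Over all genes, edgeR called 0 (558 at an unadjusted p under 0.05), DESeq2 called 4 (745) and limma's voom called 1 (1932), none of them a member. The direction of H2-Oa turned in limma's voom (0.13) and without Saline replicate 3 (0.18), and that of H2-DMb1 without TLQP21 replicate 4 (0.0076) and with Saline 2 and TLQP21 4 both left out (0.0515), while leaving out 1 library gave -0.230 to 0.0076 for H2-DMb1. With 1 library left out at a time, the median of the members ranged from -0.39 (without TLQP21 1) to -0.21 (without TLQP21 4), and the difference in log2 ratio ranged from -0.013 to 0.091 for Cd74 over the chains and from -0.076 to 0.077 for H2-Eb1 over H2-Ab1. The latter was 0.077 without Saline replicate 3, 0.014 without TLQP21 replicate 1 and 0.012 without TLQP21 replicate 4, and the former -0.013 without Saline replicate 1 and -0.0086 without Saline replicate 2. The cause of these turns was not tested. Deviations of same-numbered libraries had correlations of 0.11, 0.19, 0.27 and -0.05 across groups, and no library correlated best with its own number. Saline 1, 2, 3 and 4 correlated best with TLQP21 2, 1, 4 and 3, each on the same side of the Xist split. With a replicate block edgeR called 0 genes and the members' median was -0.28. Sampling of reads limits H2-Oa and H2-Ob most.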

Other observations

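The low ratios of H2-O to H2-DM reads in TLQP21 1 and TLQP21 2 (3.97% and 4.72%) fell on the TLQP21 libraries with Xist reads. The TLQP21 libraries called Y-linked had 6.42% and 6.31%. The Saline libraries, with Xist or without, had 5.92 to 6.21%. The mean level of B cell markers was 1.95 log2 CPM in TLQP21 1 and 0.56 in TLQP21 2, against 1.76 to 2.44 in Saline, and 2.54 and 1.44 in TLQP21 3 and 4. This arrangement was noticed in the data, rests on few H2-O reads and was not tested.

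H2-Ob departed from most members in TLQP21 1 and TLQP21 3. In TLQP21 1, where 6 of the 9 members were above the Saline mean, H2-Ob was at 5.88 CPM, below every Saline library. In TLQP21 3, where 5 members lay below the lowest Saline library, H2-Ob was at 7.90 CPM, the highest of its group.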
